A study of Homo sapiens with 12 samples.

Results

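The RNAs described here are 125 long intergenic noncoding RNAs (lincRNAs) that reached a mean of at least 1 FPKM (fragments per kilobase of transcript, scaled to the size of the library) over the 6 libraries of Hep-G2 and also over the 6 libraries of BE(2)-C. They were chosen by this measured level from 7514 lincRNAs among the 58174 listed genes, and their levels are therefore a description. The level was reached by 132 lincRNAs, of which 7 were set aside by name because they belong to widely studied lncRNAs or to the small nucleolar RNA host genes (SNHG). Another 304 lincRNAs reached the level in Hep-G2 only and 185 in BE(2)-C only. Just inside the threshold were CU633904.1 with a mean of 1.00 FPKM in Hep-G2 and 1.76 in BE(2)-C, AC090114.2 with 1.33 and 1.01, and AC020910.4 with 1.18 and 1.02. Just outside were AL355075.3 with 0.9999 and 14.9 FPKM, AC091271.1 with 1.51 and 0.989, and AL139089.1 with 2.13 and 0.985.

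Hep-G2 is a line derived from a liver cancer and carries hepatocyte genes, and BE(2)-C is derived from a neuroblastoma and carries noradrenergic genes. Cells of both lines were transfected with a control siRNA (siC) or with siRNA directed against IGF2BP1 (siI1) and harvested 72 h later. The siRNA dose was 15 nM for Hep-G2 and 25 nM for BE(2)-C, so a difference between the lines is also a difference of dose. Poly-A RNA was sequenced in 3 libraries per siRNA and line, 12 in all, and every comparison below is siI1 against siC within a line. The study calls its samples biological replicates, and the p-values measure the spread between these libraries.

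IGF2BP1 is an RNA-binding protein of the cytoplasm that binds messenger RNAs and also some noncoding RNAs and slows the decay of its targets. LincRNAs are capped and mostly polyadenylated transcripts without a known protein, often spliced inefficiently and kept in the nucleus, where the nuclear exosome degrades many of them. Many start from the promoter of a protein-coding gene and run in the opposite direction, so that a pair of divergent transcripts shares a promoter region.

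Divergent pairs recur among the results below, and the promoters of 4 lincRNAs of such pairs are shown for this reason. RefSeq (GRCh38.p14) held a promoter for 51 of the 125 lincRNAs, from 250 bases before to 50 bases after the start, 300 bases in all. The windows are chr15:40039061-40039360, plus strand, for SRP14-AS1, chr22:31346509-31346808, plus strand, for LINC01521, chr7:87345443-87345742, minus strand, for TP53TG1, and chr11:76444631-76444930, minus strand, for AP002360.2. Capitals mark CCAAT, the letters bound by NF-Y and found in many promoters without a TATA box, or ATTGG, the same letters on the other strand.
SRP14-AS1: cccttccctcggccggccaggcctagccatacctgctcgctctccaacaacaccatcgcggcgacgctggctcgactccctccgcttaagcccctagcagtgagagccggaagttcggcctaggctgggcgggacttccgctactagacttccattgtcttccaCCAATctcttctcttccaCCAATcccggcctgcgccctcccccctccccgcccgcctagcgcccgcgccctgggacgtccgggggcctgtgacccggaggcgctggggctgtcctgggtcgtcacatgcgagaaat
LINC01521: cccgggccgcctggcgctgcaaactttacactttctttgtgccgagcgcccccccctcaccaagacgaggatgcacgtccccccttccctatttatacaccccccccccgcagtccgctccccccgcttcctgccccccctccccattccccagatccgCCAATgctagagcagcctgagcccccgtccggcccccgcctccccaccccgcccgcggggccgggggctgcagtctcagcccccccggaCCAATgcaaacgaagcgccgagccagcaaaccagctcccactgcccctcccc
TP53TG1: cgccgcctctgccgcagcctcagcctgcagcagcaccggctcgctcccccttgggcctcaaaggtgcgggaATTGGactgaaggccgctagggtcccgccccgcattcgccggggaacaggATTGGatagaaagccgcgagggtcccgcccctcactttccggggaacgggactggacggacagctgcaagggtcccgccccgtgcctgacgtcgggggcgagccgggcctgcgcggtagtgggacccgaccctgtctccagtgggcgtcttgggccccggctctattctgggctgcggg
AP002360.2: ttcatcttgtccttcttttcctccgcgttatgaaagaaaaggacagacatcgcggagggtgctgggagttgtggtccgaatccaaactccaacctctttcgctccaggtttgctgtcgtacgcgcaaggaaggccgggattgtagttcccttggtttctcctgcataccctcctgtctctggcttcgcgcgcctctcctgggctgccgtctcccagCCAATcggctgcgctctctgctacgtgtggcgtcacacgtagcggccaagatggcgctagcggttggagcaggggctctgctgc
SRP14-AS1 and LINC01521 each held 2 CCAAT on their own strand, TP53TG1 held 2 on the other strand, and AP002360.2 held 1. CCAAT was found on either strand in 28 of the 51 promoters (54.9%) and in 34.6% of all 35116 RefSeq promoters, and TATAAA in 2 of the 51 (3.92%) and in 11.5% of all. The median GC content was 67.0% in the 51 promoters and 58.7% in all promoters. CCAAT was present in 10 of the 22 promoters of lincRNAs that rose in Hep-G2, in 2 of the 5 of those that fell and in 16 of the 24 of those not called. For BE(2)-C it was present in 3 of the 8, 7 of the 12 and 18 of the 31 in the same order. These counts describe letters in a window and no binding.

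Another group of lincRNAs harbours microRNAs, and their mature sequences, from RefSeq (GRCh38.p14), are shown with the seed (bases 2 to 8) in capitals. GAGGUAG was the seed of let-7a-5p, let-7f-5p and let-7d-5p in AL158152.1, of let-7i-5p in AC048341.3 and of miR-4458 in MIR4458HG. The let-7 microRNAs are known regulators of IGF2BP1.
hsa-let-7a-5p: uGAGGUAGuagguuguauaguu
hsa-let-7f-5p: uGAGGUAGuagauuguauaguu
hsa-let-7d-5p: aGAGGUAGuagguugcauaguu
hsa-let-7i-5p: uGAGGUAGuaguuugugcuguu
hsa-miR-4458: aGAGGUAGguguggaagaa
A different seed belongs to miR-4435, which is encoded by both CYTOR and MIR4435-2HG, and further seeds to the microRNAs in AC020916.1.
hsa-miR-4435: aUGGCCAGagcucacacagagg
hsa-miR-23a-3p: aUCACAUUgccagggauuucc
hsa-miR-27a-3p: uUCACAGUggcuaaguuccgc
hsa-miR-24-3p: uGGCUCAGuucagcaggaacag

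The libraries held 12852988 to 15721210 reads assigned to genes. Of these reads, the lincRNAs took 0.1498% to 0.163% in the Hep-G2 libraries and 0.0998% to 0.106% in the BE(2)-C libraries. IGF2BP1 itself measured the knockdown. Hep-G2 gave 48.5, 46.6 and 50.8 with siC and 12.6, 10.7 and 10.7 with siI1 (FPKM), and BE(2)-C gave 21.3, 20.6 and 21.6 with siC and 4.85, 4.75 and 4.87 with siI1. Every siI1 library was far below every siC library, at log2 fold changes of -2.097 (SE 0.079, adjusted p 7.8e-06) in Hep-G2 and -2.11 (SE 0.048, adjusted p 1.5e-05) in BE(2)-C. These adjusted p-values, like all below, come from limma on log2(FPKM + 0.1) with adjustment over all tested genes, and with 3 libraries per group a two-sided exact permutation p is at least 0.1. A gene is called lower or higher where the adjusted p is below 0.05.

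The libraries were not equally alike. Read counts of siI1 replicate 1 of Hep-G2 differed from those of the other siI1 replicates by 13.8 and 14.3 times counting error (chi-square per degree of freedom), whereas siI1 replicates 2 and 3 differed by 1.98. The other pairs of replicates lay between 2.28 and 7.31. The main counts of Hep-G2 are therefore also given without siI1 replicate 1, as are calls of lincRNAs described in full that changed. Other Hep-G2 results, such as those by arrangement, name or gene list, are given with all 3 siI1 libraries. Among the 43 lincRNAs that rose in Hep-G2, this library was the siI1 library nearest to siC for 26.

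Markers of both lines were present in the line they belong to. The 9 hepatocyte markers summed to 7574 to 7644 FPKM in the Hep-G2 siC libraries and to 12105 to 13797 in the siI1 libraries, led by ALB, and 5 rose (ALB, APOA1, SERPINA1, FGB, HNF4A) while 2 fell (AFP, TTR). In BE(2)-C the 9 noradrenergic markers summed to 3511 to 3759 FPKM with siC and 3718 to 3824 with siI1, led by MYCN, and 2 rose (TH, CHGA) while 5 fell (PHOX2A, HAND2 and DBH among them). Hepatocyte markers summed to at most 0.434 FPKM in BE(2)-C and noradrenergic markers to at most 0.269 in Hep-G2, with 3 of 9 at 0 in every library of the other line in each case. The 9 markers of blood, vessel, connective and squamous cells summed to 1.07 to 3.03 FPKM in Hep-G2, led by CD14, and to 11.9 to 22.6 in BE(2)-C, led by LUM. LUM and DCN rose in BE(2)-C and CD14 fell, whereas CD14 rose in Hep-G2, and the part of these changes in the results below was not tested. In bulk RNA, fewer cells that carry a transcript and less of it per cell cannot be told apart.

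The levels of the 125 lincRNAs were low, with a median of the mean FPKM of 2.75 for Hep-G2 and 2.28 for BE(2)-C. Only 11 reached 5 FPKM in both lines and 14 reached 10 FPKM in either. NORAD, the RNA activated by DNA damage that binds PUMILIO proteins in the cytoplasm, was the most abundant in both lines with a mean of 112 FPKM in Hep-G2 and 40.5 in BE(2)-C. TP53TG1, a target gene of p53, followed in Hep-G2 with 30.1 FPKM, and AP001505.2 in BE(2)-C with 27.3. The tables were normalized separately, and across them 8 lincRNAs lay more than 4-fold higher in Hep-G2, led by AL035446.1 (13.5-fold), and 3 in BE(2)-C, led by AP001505.2 (6.13-fold). In 52 of the 125 some library had fewer than 20 reads, and AC080013.6, AC104986.2 and SPRY4-IT1 had a library at 0. The log2(FPKM + 0.1) scale understates changes at such levels. The median standard error of a log2 fold change was 0.17 for Hep-G2 and 0.16 for BE(2)-C, beside 0.15 and 0.14 over all tested genes.

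**Figure D1:**
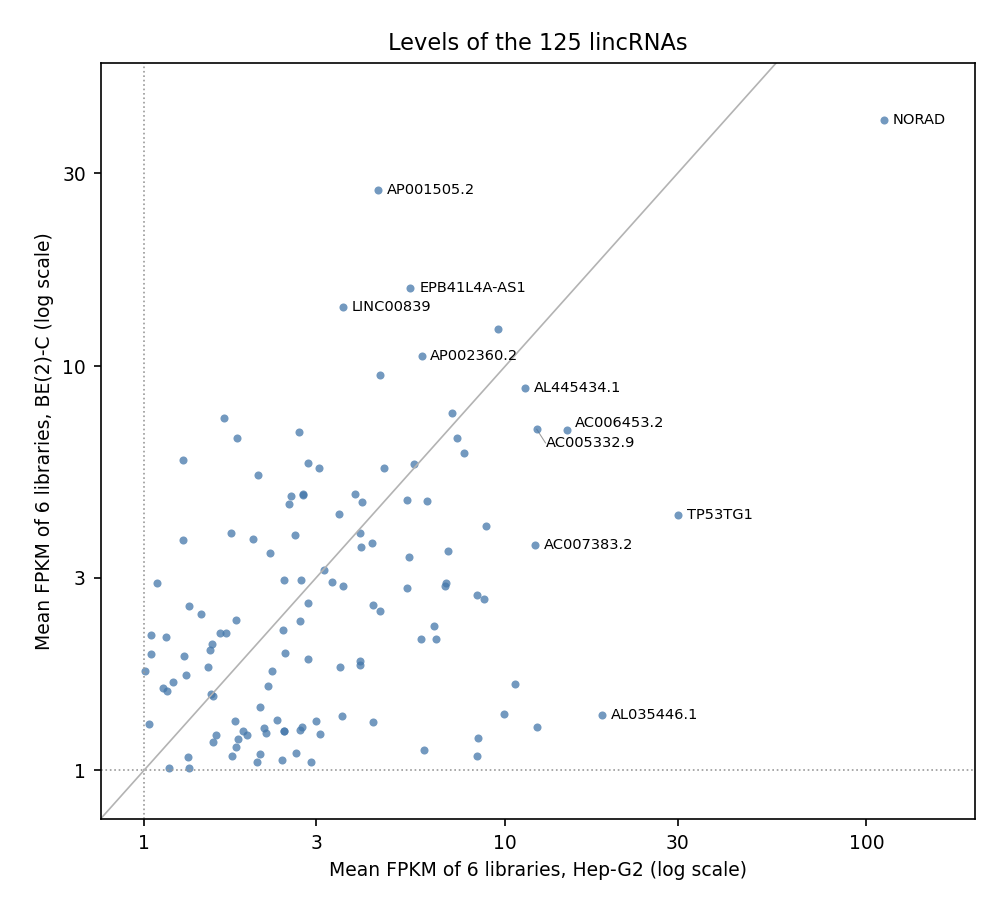
Mean FPKM over 6 libraries of each of the 125 lincRNAs in Hep-G2 (x axis, log scale) and BE(2)-C (y axis, log scale), with the line of equal values and dotted lines at the level of 1 FPKM. NORAD lies apart at 112 and 40.5 FPKM, and most points lie below 5 FPKM in at least 1 line.

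All 125 lincRNAs passed the filter on low values in both lines. In Hep-G2, 12 were lower (9.6%) and 43 were higher (34.4%) with siI1, while 23.0% of all 19436 tested genes were lower and 21.9% higher. In BE(2)-C, 24 were lower (19.2%) and 20 higher (16.0%), while 14.8% of all 18656 tested genes were lower and 13.3% higher. The lincRNAs of Hep-G2 thus leaned to higher values and those of BE(2)-C had shares near those of all genes in both directions. The level was a mean over siC and siI1 together, so some lincRNAs passed it only through the group where they were higher. In Hep-G2, AC020910.4 had means of 0.754 FPKM with siC and 1.60 with siI1, and AC090204.1 had 0.676 and 1.89. Conversely, AC008124.1 had 1.39 and 0.873. Such lincRNAs are included in the counts above, and their number was not determined. The lean is a description of genes chosen by level. The median log2 fold change was 0.31 in Hep-G2, where all tested genes had 0.0069, and -0.024 in BE(2)-C, where all tested genes had 0.016. Protein-coding genes at the same level in both lines, 8695 in number, had a median of -0.085 in Hep-G2 with 35.1% lower and 24.5% higher, and of -0.035 in BE(2)-C with 24.2% lower and 15.7% higher. All 1470 lincRNAs tested in Hep-G2 had a median of 0.32 with 115 lower and 283 higher, and for the 1166 tested in BE(2)-C the median was 0.15, 55 being lower and 137 higher. Called values reached from -3.41 (SPRY4-IT1) to 2.17 (SRP14-AS1) in Hep-G2 and from -1.52 (AC026979.3) to 1.85 (AP001628.1) in BE(2)-C.

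The counts moved when a library was left out. The 12 lower lincRNAs of Hep-G2 became 13 and the 43 higher ones 51 without siI1 replicate 1, the library that stood apart, and the median became 0.36. Without siC replicate 1, siC replicate 3 or siI1 replicate 3 of Hep-G2 there were 7, 5 and 7 lower, and 36, 35 and 32 higher. The 24 lower ones of BE(2)-C became 10 without siC replicate 1, 13 without siC replicate 2, 14 without siI1 replicate 1 and 16 without siI1 replicate 2 or 3. The 20 higher ones of BE(2)-C became 10 without siI1 replicate 1, 11 without siI1 replicate 2 and 13 without siI1 replicate 3. When all libraries were scaled to an equal sum of FPKM, the median of all tested genes of Hep-G2 became -0.15, and the split of 12 lower and 43 higher (78.2% of the called higher) became 22 lower and 34 higher (60.7%).

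Without any test, all 3 siI1 libraries lay above all 3 siC libraries for 48 lincRNAs (38.4%) in Hep-G2 and below for 15 (12%), while 28.0% of all tested genes lay above and 27.8% below, and 21.9% and 23.0% were called higher and lower. For BE(2)-C the groups were apart in this way for 25 (20%) and 34 (27.2%), beside 22.6% and 22.4% of all tested genes and 13.3% and 14.8% called. The summed level of the lincRNAs was 573 ± 12.4 FPKM (SD, n = 3) with siC and 673 ± 29.1 with siI1 in Hep-G2. Without NORAD, it went from 447 ± 18.7 to 576 ± 45.2. For BE(2)-C the sum was 467 ± 13.3 with siC and 459 ± 11.9 with siI1, a difference within the spread. The share of reads did not follow the sum of FPKM, since the lincRNAs took 0.158 ± 0.0013% of the reads (SD, n = 3) with siC and 0.155 ± 0.0068% with siI1 in Hep-G2, where siI1 replicates 2 and 3 had the lowest shares. The FPKM of all genes together also varied between libraries, for a reason that was not tested. Of this total, the lincRNAs made up 0.219% to 0.224% in the Hep-G2 siC libraries and 0.230% to 0.234% in the siI1 libraries.

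**Figure D2:**
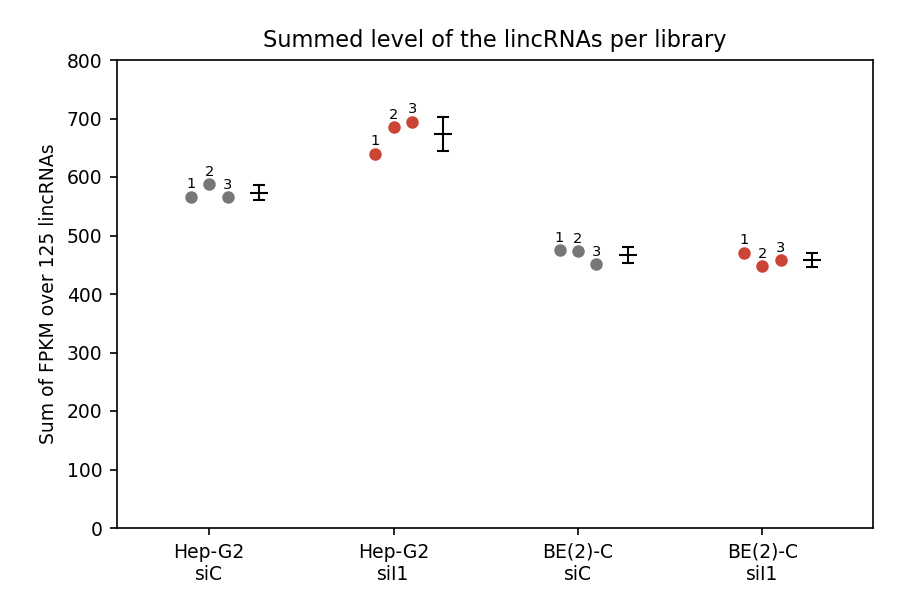
Sum of FPKM over the 125 lincRNAs in each library (points, numbered by replicate) with mean and SD of 3 libraries. In Hep-G2 all siI1 libraries lie above all siC libraries, with means of 673 and 573 FPKM, and in BE(2)-C the groups overlap.

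Effects in the lines were weakly correlated across the lincRNAs. Of the 125 lincRNAs, 71 had the same sign of log2 fold change in both lines, and the correlation across them was 0.11, a description over genes that are not independent. Neither value is given over all tested genes, so they do not show a trait particular to the lincRNAs. Called in both lines were 23, in Hep-G2 alone 32, in BE(2)-C alone 21 and in neither 49. Among the 23, 9 were higher in both lines (7.2% of the 125), 5 lower in both (4%), 6 rose in Hep-G2 but fell in BE(2)-C (4.8%), and 3 fell in Hep-G2 but rose in BE(2)-C (2.4%). Over all 15362 genes tested in both lines, the shares in the same order were 4.34%, 6.60%, 3.31% and 2.51%. Without siI1 replicate 1 of Hep-G2 these were 10 higher in both, 4 lower in both and 11 opposite. The 9 opposite ones became 4 without siC replicate 1, siC replicate 3, siI1 replicate 2 or siI1 replicate 3 of Hep-G2, and 6 without any library of BE(2)-C other than siI1 replicate 2. The 9 higher in both became 5 without siI1 replicate 1 or 2 and 6 without siC replicate 1 or siI1 replicate 3 of BE(2)-C. The 5 lower in both became 3 without siC replicate 3 of Hep-G2 and 2 without any library of BE(2)-C other than siI1 replicate 2.

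**Figure D3:**
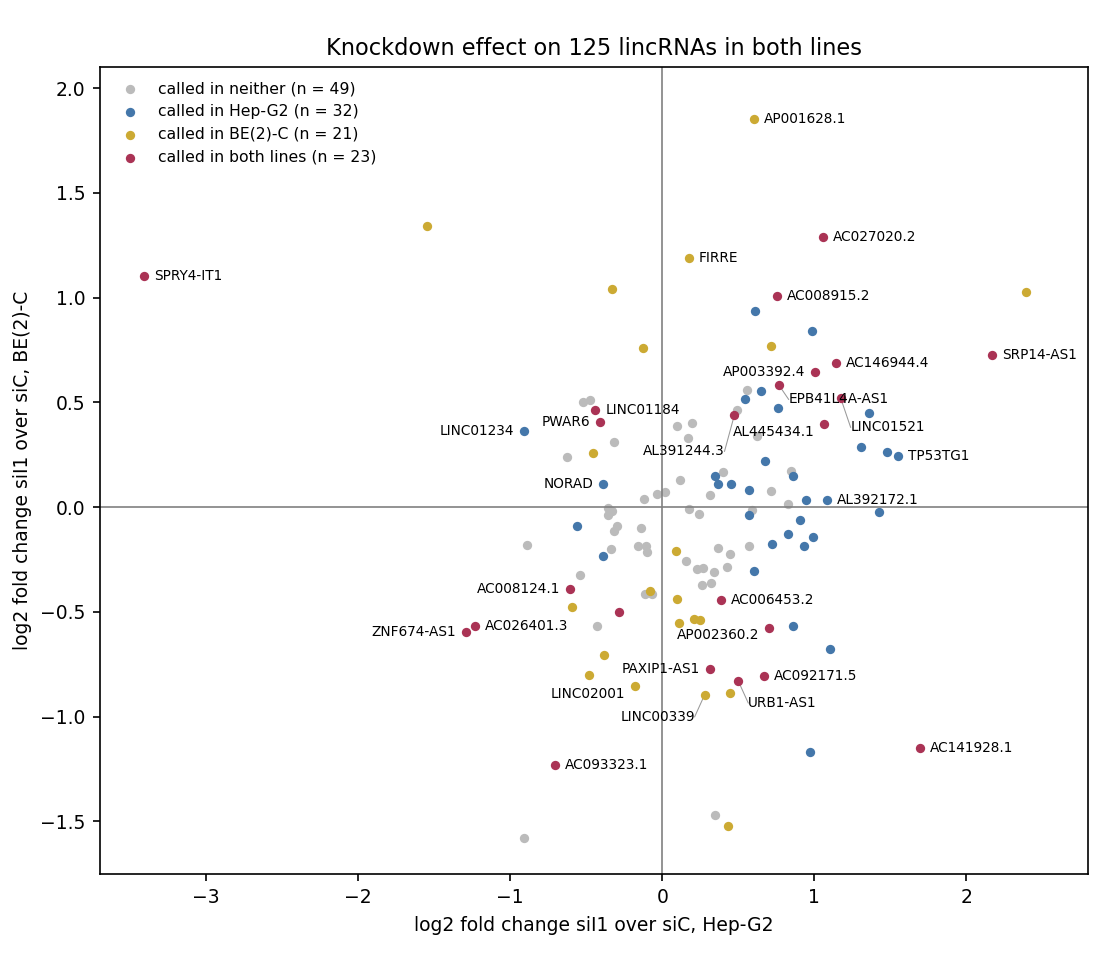
Log2 fold change of siI1 over siC of each of the 125 lincRNAs in Hep-G2 (x axis) and BE(2)-C (y axis), coloured by the line in which limma's adjusted p was below 0.05. The 23 called in both lines lie in all 4 quadrants, and SPRY4-IT1 lies farthest left at -3.41.

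Among these 9, SRP14-AS1 had the largest increase in Hep-G2. Its siC libraries were all below 1 FPKM in both lines, so it reached the level of choice only through its siI1 libraries. The same held for AC027020.2 and AC141928.1 in Hep-G2 and for AC146944.4 in BE(2)-C. Conversely, SPRY4-IT1 and AC008124.1 in Hep-G2 and AC092171.5 in BE(2)-C had all siI1 libraries below 1 FPKM and reached the level through siC. A group mean below 1 FPKM was also seen for AC146944.4 (siC) and LINC01234 (siI1) in Hep-G2 and for ZNF674-AS1 (siI1) in BE(2)-C. The choice of these lincRNAs thus drew on the values that are compared. SRP14-AS1 (ENSG00000248508, chr15:40039242-40080614, plus strand) starts 61 nt from SRP14, the gene of a signal recognition particle protein, and had 0.517, 0.736 and 0.521 FPKM with siC and 2.64, 3.31 and 3.03 with siI1 in Hep-G2, and 0.908, 0.991 and 0.9799 with siC and 2.097, 1.77 and 1.20 with siI1 in BE(2)-C. All siI1 libraries lay above all siC libraries in both lines, in Hep-G2 by a wide margin. Its log2 fold change was 2.17 (SE 0.18, adjusted p 0.00013) in Hep-G2 and 0.73 (SE 0.21, adjusted p 0.039) in BE(2)-C. The BE(2)-C call was lost without BE(2)-C siC replicates 1, 2 and 3 and siI1 replicates 1 and 2 in turn (adjusted p 0.093, 0.076, 0.078, 0.1 and 0.11). SRP14 changed by 0.38 (adjusted p 0.015) in Hep-G2 and -0.07 (adjusted p 0.46) in BE(2)-C. LINC01521 (ENSG00000213888, chr22:31346777-31348719, plus strand) starts 431 nt from PATZ1 and had 1.29, 1.02 and 0.907 FPKM with siC and 3.04, 2.40 and 2.19 with siI1 in Hep-G2, and 5.77, 5.18 and 5.37 with siC and 7.86, 7.61 and 8.04 with siI1 in BE(2)-C. Levels were higher in BE(2)-C, and the siI1 libraries of each line stood clear of its siC libraries. The fold change amounted to 1.17 (SE 0.18, adjusted p 0.0023) in Hep-G2 and 0.52 (SE 0.064, adjusted p 0.0017) in BE(2)-C, and PATZ1 was called in neither line. AP003392.4 (ENSG00000255121, chr11:118994824-118998004, minus strand) starts 134 nt from CCDC84 and had 1.24, 0.926 and 0.990 FPKM with siC and 1.87, 2.37 and 2.38 with siI1 in Hep-G2, and 1.30, 1.81 and 1.99 with siC and 2.62, 3.10 and 2.34 with siI1 in BE(2)-C. Both lines showed every siI1 library above every siC library, more narrowly in BE(2)-C. Effects were 1.00 (SE 0.17, adjusted p 0.003) in Hep-G2 and 0.64 (SE 0.18, adjusted p 0.038) in BE(2)-C, and the BE(2)-C call was lost without BE(2)-C siC replicates 1 and 2 and siI1 replicates 1, 2 and 3 in turn (adjusted p 0.065, 0.062, 0.084, 0.12 and 0.054). Its neighbour CCDC84 rose as well, by 1.03 (adjusted p 0.0018) in Hep-G2 and 0.25 (adjusted p 0.042) in BE(2)-C.

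EPB41L4A-AS1 (ENSG00000224032, chr5:112160526-112164818, plus strand), a cytoplasmic RNA whose gene hosts the small nucleolar RNA SNORA13, had 3.62, 4.45 and 3.99 FPKM with siC and 6.13, 7.06 and 7.56 with siI1 in Hep-G2, and 11.7, 13.1 and 12.5 with siC and 20.4, 16.8 and 18.9 with siI1 in BE(2)-C. No siI1 library overlapped with a siC library, and BE(2)-C held the higher levels. Log2 fold changes were 0.77 (SE 0.11, adjusted p 0.0016) in Hep-G2 and 0.58 (SE 0.08, adjusted p 0.0026) in BE(2)-C. Its exons lie over exons of EPB41L4A on the opposite strand for 51.2% of their length, and the strand setting of the read summary is not stated, so its values are uncertain to that extent. AL445434.1 (ENSG00000230269, chr6:3182626-3195784, minus strand), 35619 nt from the nearest protein-coding start, that of PSMG4, had 7.23, 6.87 and 7.84 FPKM with siC and 15.3, 15.5 and 15.5 with siI1 in Hep-G2, and 7.73, 7.98 and 7.13 with siC and 10.4, 8.98 and 10.8 with siI1 in BE(2)-C. The 3 siI1 libraries of Hep-G2 were nearly equal and about double the siC libraries, and the gap was smaller in BE(2)-C. It changed by 1.07 (SE 0.064, adjusted p 3.6e-05) in Hep-G2 and 0.40 (SE 0.085, adjusted p 0.014) in BE(2)-C, and the latter call was lost without BE(2)-C siI1 replicate 3 (adjusted p 0.051). AC027020.2 (ENSG00000270127, chr15:100547765-100550153, minus strand) had 0.539, 0.891 and 0.596 FPKM with siC and 1.42, 1.87 and 1.22 with siI1 in Hep-G2, and 1.52, 1.76 and 1.65 with siC and 3.85, 3.998 and 4.67 with siI1 in BE(2)-C. Here the siI1 libraries were more than double the siC libraries in BE(2)-C, and they also stood above them in Hep-G2. Fold changes on the log2 scale were 1.06 (SE 0.24, adjusted p 0.011) in Hep-G2 and 1.29 (SE 0.11, adjusted p 0.00046) in BE(2)-C, and its nearest protein-coding gene CERS3, 5158 nt away, was not expressed at a level that could be tested.

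AC008915.2 (ENSG00000260136, chr16:23452758-23457606, plus strand) had 8.38, 7.14 and 8.15 FPKM with siC and 12.4, 14.6 and 13.2 with siI1 in Hep-G2, and 1.31, 0.697 and 1.21 with siC and 2.51, 2.25 and 1.86 with siI1 in BE(2)-C. Its siI1 libraries exceeded its siC libraries in both lines, from only 9 to 39 reads in BE(2)-C. Changes were 0.76 (SE 0.089, adjusted p 0.00062) in Hep-G2 and 1.01 (SE 0.24, adjusted p 0.021) in BE(2)-C, the second lost without BE(2)-C siI1 replicates 1 and 2 in turn (adjusted p 0.064 and 0.063). The exons overlap those of COG7 on the opposite strand for 36.1% of their length, and COG7 was called in neither line. AC146944.4 (ENSG00000269983, chr5:70449636-70450353, plus strand) had 0.718, 1.33 and 0.850 FPKM with siC and 2.47, 2.39 and 1.77 with siI1 in Hep-G2, and 0.873, 0.978 and 0.896 with siC and 1.53, 1.38 and 1.71 with siI1 in BE(2)-C. Again no siI1 library reached down to a siC library, with 8 to 25 reads per library in Hep-G2. The log2 fold changes of 1.145 (SE 0.25, adjusted p 0.0087) in Hep-G2 and 0.69 (SE 0.14, adjusted p 0.011) in BE(2)-C are uncertain, since its whole transcript also occurs in GTF2H2C, and the BE(2)-C call was lost with voom on recovered reads (0.71, adjusted p 0.17). AL391244.3 (ENSG00000272455, chr1:1409096-1410618, plus strand), divergent from MRPL20 at 1803 nt, had 2.03, 2.70 and 2.05 FPKM with siC and 2.77, 3.07 and 3.68 with siI1 in Hep-G2, and 2.15, 2.92 and 2.44 with siC and 3.78, 3.34 and 3.12 with siI1 in BE(2)-C. The groups were apart by a small margin in both lines. Effects of 0.47 (SE 0.16, adjusted p 0.047) in Hep-G2 and 0.44 (SE 0.13, adjusted p 0.048) in BE(2)-C were close to the threshold, and the calls were lost without Hep-G2 siC replicates 1 and 3 and siI1 replicates 2 and 3 in turn (adjusted p 0.13, 0.13, 0.094 and 0.14) and without BE(2)-C siC replicates 1 and 3 and siI1 replicates 1, 2 and 3 in turn (adjusted p 0.11, 0.11, 0.14, 0.11 and 0.07).

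Of the 5 lincRNAs that fell in both lines, 4 are given here, among them AC093323.1, which had the smallest p of the decreases in BE(2)-C. AC093323.1 (ENSG00000170846, chr4:6663396-6676755, plus strand), which GENCODE 44 lists as protein-coding, had 9.45, 10.2 and 7.88 FPKM with siC and 5.04, 5.42 and 6.25 with siI1 in Hep-G2, and 9.49, 9.61 and 8.89 with siC and 3.66, 3.79 and 4.33 with siI1 in BE(2)-C. Each siI1 library was below each siC library, by the wider margin in BE(2)-C. Its log2 fold change was -0.71 (SE 0.12, adjusted p 0.0033) in Hep-G2 and -1.23 (SE 0.08, adjusted p 0.00021) in BE(2)-C, with a difference between the lines of -0.53 (SE 0.15, adjusted p 0.017) that was lost with equal sums of FPKM (-0.34, adjusted p 0.083). ZNF674-AS1 (ENSG00000230844, chrX:46545438-46548841, plus strand), which starts 19 nt from the start of ZNF674 on the X chromosome and runs toward it on the other strand, had 3.87, 4.31 and 3.49 FPKM with siC and 1.49, 1.82 and 1.30 with siI1 in Hep-G2, and 1.71, 1.31 and 1.58 with siC and 0.872, 1.23 and 0.866 with siI1 in BE(2)-C. In Hep-G2 the siI1 libraries were far below the siC libraries, and in BE(2)-C they were below by little. The values correspond to -1.29 (SE 0.15, adjusted p 0.00059) in Hep-G2 and -0.60 (SE 0.18, adjusted p 0.049) in BE(2)-C, and the latter call was lost without BE(2)-C siC replicates 1, 2 and 3 and siI1 replicates 1 and 3 in turn (adjusted p 0.13, 0.052, 0.11, 0.13 and 0.13). ZNF674 was called in neither line.

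AC008124.1 (ENSG00000273015, chr12:45718046-45727860, minus strand), divergent from the chromatin remodelling gene ARID2 at 1846 nt, had 1.26, 1.33 and 1.56 FPKM with siC and 0.851, 0.953 and 0.815 with siI1 in Hep-G2, and 1.90, 1.89 and 1.70 with siC and 1.37, 1.42 and 1.32 with siI1 in BE(2)-C. Both lines showed siI1 below siC in every library. Changes amounted to -0.61 (SE 0.16, adjusted p 0.018) in Hep-G2 and -0.39 (SE 0.11, adjusted p 0.039) in BE(2)-C, and calls were lost without Hep-G2 siC replicate 3 and siI1 replicate 3 in turn (adjusted p 0.068 and 0.056) and without BE(2)-C siC replicates 1, 2 and 3 and siI1 replicates 1, 2 and 3 in turn (adjusted p 0.093, 0.1, 0.053, 0.094, 0.081 and 0.11). ARID2 also fell in Hep-G2, at -0.56 (adjusted p 0.0074), and not in BE(2)-C, where it was 0.09 (adjusted p 0.58). AC026401.3 (ENSG00000280206, chr16:15701237-15702118, plus strand) lies within NDE1 on the same strand without sharing its exons and had 4.53, 4.16 and 3.23 FPKM with siC and 1.01, 1.64 and 2.54 with siI1 in Hep-G2, and 3.001, 3.10 and 3.24 with siC and 1.91, 2.57 and 1.80 with siI1 in BE(2)-C. The siI1 libraries of Hep-G2 were spread widely below siC, the highest being replicate 3. The fold changes were -1.23 (SE 0.31, adjusted p 0.017) in Hep-G2 and -0.57 (SE 0.14, adjusted p 0.025) in BE(2)-C, the calls being lost without Hep-G2 siC replicate 1 (adjusted p 0.056) and without BE(2)-C siC replicates 1, 2 and 3 and siI1 replicates 1 and 3 in turn (adjusted p 0.052, 0.059, 0.068, 0.073 and 0.073). NDE1, a gene of the dynein pathway, moved the same way, by -0.87 (adjusted p 0.0006) in Hep-G2 and -0.49 (adjusted p 0.036) in BE(2)-C.

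Opposite directions were seen for 9 lincRNAs. A choice by opposite calls all but fixes the test of the difference between the lines, so its p-value adds no support for these 9. AC141928.1 (ENSG00000250986, chr4:3758748-3763390, minus strand) had 0.512, 0.681 and 0.689 FPKM with siC and 2.32, 2.40 and 2.02 with siI1 in Hep-G2, and 3.77, 2.64 and 3.81 with siC and 1.501, 1.39 and 1.48 with siI1 in BE(2)-C. With siI1, it was higher in every Hep-G2 library and lower in every BE(2)-C library. Its log2 fold change was 1.69 (SE 0.17, adjusted p 0.00029) in Hep-G2 and -1.15 (SE 0.16, adjusted p 0.0024) in BE(2)-C, and the difference of BE(2)-C minus Hep-G2 was -2.85 (SE 0.23, adjusted p 3.8e-06). ADRA2C, the gene of the alpha-2C adrenergic receptor, starts 2958 nt away in the opposite direction and moved in the same way. Its mean FPKM went from 14.8 to 37.2 in Hep-G2, by 1.31 (adjusted p 0.00026), and from 30.8 to 13.0 in BE(2)-C, by -1.24 (adjusted p 0.0002). SPRY4-IT1 (ENSG00000281881, chr5:142317620-142318322), which lies within SPRY4 and shares no exon with it, had 2.66, 1.98 and 3.76 FPKM with siC and 0.526, 0.195 and 0 with siI1 in Hep-G2, and 1.19, 0.888 and 1.63 with siC and 3.31, 2.62 and 2.25 with siI1 in BE(2)-C. A library at 0 and 0 to 39 reads per library in Hep-G2 make the size of the decrease imprecise, while the order of the groups was clear in both lines. The fold change was -3.41 (SE 0.64, adjusted p 0.0049) in Hep-G2 and 1.10 (SE 0.23, adjusted p 0.013) in BE(2)-C, with a difference of 4.51 (SE 0.74, adjusted p 0.00061), and it was -4.72 in Hep-G2 with a pseudocount of 0.01 and -1.61 with a pseudocount of 1, and its difference between the lines was 5.88 and 2.35 in these cases. SPRY4, a feedback inhibitor of receptor tyrosine kinase signalling, gave 19.7, 21.6 and 21.1 with siC and 2.03, 1.76 and 1.70 with siI1 in Hep-G2 (FPKM) and 21.1, 20.2 and 21.8 with siC and 30.8, 30.1 and 30.8 with siI1 in BE(2)-C. SPRY4 thus moved with SPRY4-IT1 in both lines, at -3.44 (SE 0.087, adjusted p 2.5e-06) and 0.54 (SE 0.044, adjusted p 0.00038).

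A further group of these 9 rose in Hep-G2 and fell in BE(2)-C. PAXIP1-AS1 (ENSG00000273344, chr7:155003421-155005703, plus strand), divergent from PAXIP1 at 297 nt, had 5.00, 5.27 and 5.35 FPKM with siC and 6.82, 6.18 and 6.50 with siI1 in Hep-G2, and 2.35, 2.84 and 2.92 with siC and 1.35, 1.54 and 1.72 with siI1 in BE(2)-C. The groups were apart in both lines, tightly so in Hep-G2. It changed by 0.31 (SE 0.071, adjusted p 0.011) in Hep-G2 and -0.78 (SE 0.14, adjusted p 0.0066) in BE(2)-C with a difference of -1.09 (SE 0.15, adjusted p 0.00018), while PAXIP1 was called in neither line. With equal sums of FPKM its Hep-G2 value was 0.15 (adjusted p 0.21). URB1-AS1 (ENSG00000256073, chr21:32393095-32393980, plus strand), divergent from URB1 at 83 nt, had 5.04, 5.83 and 4.98 FPKM with siC and 5.96, 7.69 and 9.18 with siI1 in Hep-G2, and 3.10, 2.44 and 2.67 with siC and 1.32, 1.36 and 1.82 with siI1 in BE(2)-C. Replicate 1 was the lowest siI1 library in Hep-G2 and lay just above siC. The effects of 0.50 (SE 0.16, adjusted p 0.039) in Hep-G2 and -0.83 (SE 0.16, adjusted p 0.0085) in BE(2)-C differed by -1.33 (SE 0.23, adjusted p 0.00092), and the Hep-G2 call was lost without Hep-G2 siC replicates 1 and 3 and siI1 replicates 2 and 3 in turn (adjusted p 0.1, 0.11, 0.097 and 0.092) and with equal sums of FPKM (adjusted p 0.074). URB1, a gene of ribosome assembly in the nucleolus, went the other way in Hep-G2, where it fell by 1.13 (adjusted p 0.00047), and was -0.16 (adjusted p 0.17) in BE(2)-C. AP002360.2 (ENSG00000255135, chr11:76435559-76444690, minus strand), divergent from EMSY at 233 nt, had 4.19, 5.25 and 3.87 FPKM with siC and 5.69, 8.11 and 8.14 with siI1 in Hep-G2, and 13.4, 11.5 and 13.0 with siC and 9.27, 6.66 and 9.65 with siI1 in BE(2)-C. Again siI1 replicate 1 was nearest to siC in Hep-G2, and siI1 replicate 2 was lowest in BE(2)-C. Log2 values were 0.70 (SE 0.17, adjusted p 0.016) in Hep-G2 and -0.58 (SE 0.14, adjusted p 0.024) in BE(2)-C with a difference of -1.28 (SE 0.24, adjusted p 0.0016), and calls were lost without Hep-G2 siC replicates 1 and 3 and siI1 replicates 2 and 3 in turn (adjusted p 0.051, 0.055, 0.053 and 0.051) and without BE(2)-C siC replicates 1 and 3 in turn (adjusted p 0.069 and 0.064). EMSY, the gene of a BRCA2-binding protein, fell in Hep-G2 at -0.78 (adjusted p 0.011) and was 0.093 (adjusted p 0.64) in BE(2)-C.

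AC006453.2 (ENSG00000283196, chr2:89580558-89581140, minus strand) was among the most abundant with 12.8, 13.7 and 11.8 FPKM with siC and 14.8, 16.96 and 18.7 with siI1 in Hep-G2, and 8.40, 7.88 and 7.79 with siC and 6.06, 5.98 and 5.61 with siI1 in BE(2)-C. Its groups did not overlap in either line. The changes of 0.39 (SE 0.10, adjusted p 0.018) in Hep-G2 and -0.44 (SE 0.062, adjusted p 0.0027) in BE(2)-C differed by -0.83 (SE 0.12, adjusted p 0.00027), and the Hep-G2 call was lost without Hep-G2 siC replicates 1 and 3 and siI1 replicate 2 in turn (adjusted p 0.051, 0.064 and 0.054) and with equal sums of FPKM (0.22, adjusted p 0.052). All of its transcript also occurs in LSP1, and GENCODE 44 lists it as a transcribed pseudogene, so its reads cannot be assigned with certainty. AC092171.5 (ENSG00000273084, chr7:5428184-5430566, plus strand), divergent from TNRC18 at 2770 nt, had 4.58, 4.67 and 4.32 FPKM with siC and 5.49, 8.53 and 8.18 with siI1 in Hep-G2, and 1.26, 1.90 and 1.21 with siC and 0.687, 0.976 and 0.688 with siI1 in BE(2)-C. Replicate 1 was again the lowest siI1 library in Hep-G2, and only 9 to 23 reads per library were counted in BE(2)-C. Effects were 0.67 (SE 0.17, adjusted p 0.015) in Hep-G2 and -0.81 (SE 0.23, adjusted p 0.036) in BE(2)-C, calls being lost without Hep-G2 siC replicate 3 and siI1 replicate 3 in turn (adjusted p 0.052 and 0.05) and without BE(2)-C siC replicates 1 and 2 and siI1 replicates 1 and 3 in turn (adjusted p 0.056, 0.088, 0.096 and 0.1), and the difference was -1.48 (SE 0.29, adjusted p 0.0018). TNRC18 went in the other direction in both lines, by -0.23 (adjusted p 0.034) and 0.35 (adjusted p 0.0057).

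Beside SPRY4-IT1, PWAR6 and LINC01184 fell in Hep-G2 but rose in BE(2)-C. PWAR6 (ENSG00000257151, chr15:25031873-25036490), from the imprinted Prader-Willi and Angelman region, had 4.41, 3.56 and 4.21 FPKM with siC and 3.31, 2.86 and 2.92 with siI1 in Hep-G2, and 1.22, 1.13 and 1.11 with siC and 1.499, 1.52 and 1.68 with siI1 in BE(2)-C. The groups were apart in both lines by modest margins. It gave -0.41 (SE 0.11, adjusted p 0.025) in Hep-G2 and 0.41 (SE 0.12, adjusted p 0.045) in BE(2)-C with a difference of 0.82 (SE 0.15, adjusted p 0.0016), and calls were lost without Hep-G2 siC replicates 1 and 3 and siI1 replicates 2 and 3 in turn (adjusted p 0.088, 0.083, 0.078 and 0.072) and without BE(2)-C siC replicates 1, 2 and 3 and siI1 replicates 1, 2 and 3 in turn (adjusted p 0.063, 0.1, 0.1, 0.089, 0.097 and 0.15). LINC01184 (ENSG00000245937, chr5:127939152-128083172, minus strand), divergent from the ion transporter gene SLC12A2 at 594 nt, had 1.91, 1.498 and 1.84 FPKM with siC and 1.144, 1.36 and 1.27 with siI1 in Hep-G2, and 1.66, 1.36 and 1.47 with siC and 2.06, 2.17 and 2.07 with siI1 in BE(2)-C. Every siI1 library was below siC in Hep-G2 and above it in BE(2)-C. The values of -0.44 (SE 0.15, adjusted p 0.04998) in Hep-G2 and 0.47 (SE 0.11, adjusted p 0.023) in BE(2)-C differed by 0.91 (SE 0.18, adjusted p 0.0019), and calls were lost without Hep-G2 siC replicates 1 and 3 and siI1 replicates 1, 2 and 3 in turn (adjusted p 0.15, 0.14, 0.092, 0.073 and 0.1) and without BE(2)-C siC replicates 2 and 3 and siI1 replicates 1, 2 and 3 in turn (adjusted p 0.062, 0.058, 0.061, 0.077 and 0.068). SLC12A2 fell in Hep-G2 at -0.998 (adjusted p 0.0035) and was 0.20 (adjusted p 0.23) in BE(2)-C.

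**Figure D4:**
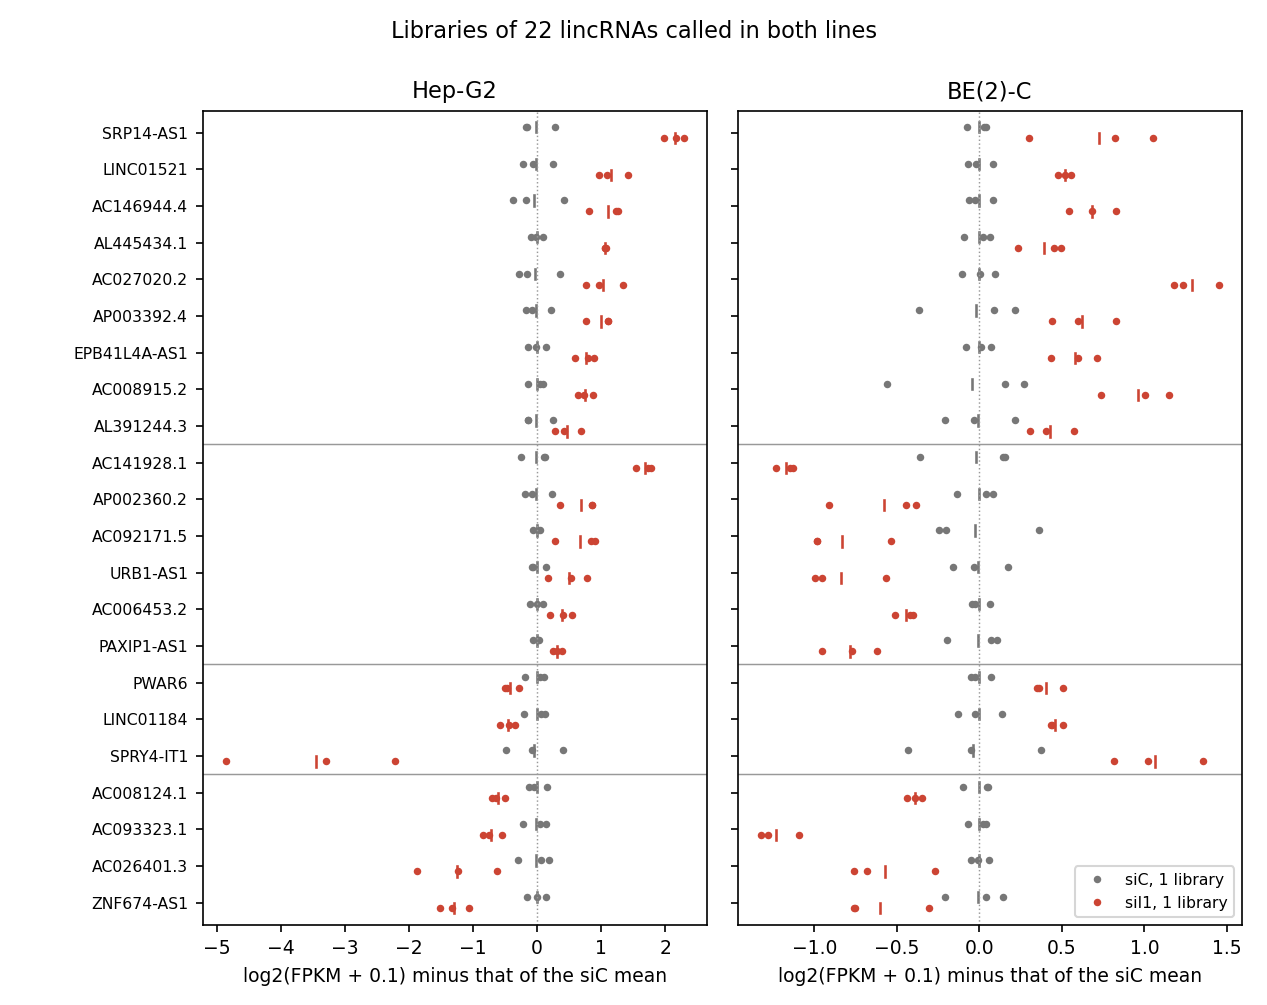
Libraries of 22 of the 23 lincRNAs called in both lines, as log2(FPKM + 0.1) minus that of the siC mean, with 3 siC (grey) and 3 siI1 (red) libraries per line and a bar at each group's mean. From the top, 9 rose in both lines, 6 rose in Hep-G2 and fell in BE(2)-C, 3 did the reverse and the last 4 fell in both.

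Some of the clearest changes were called in 1 line. TP53TG1 (ENSG00000182165, chr7:87322943-87345560, minus strand), divergent from CROT at 104 nt, had 15.5, 14.6 and 15.6 FPKM with siC and 39.97, 47.4 and 47.3 with siI1 in Hep-G2, and 3.61, 4.12 and 3.84 with siC and 6.20, 4.22 and 3.66 with siI1 in BE(2)-C. In Hep-G2 it was high in all siI1 libraries, and in BE(2)-C the groups overlapped with siI1 replicate 1 highest. Its log2 fold change was 1.55 (SE 0.078, adjusted p 2e-05) in Hep-G2 and 0.24 (SE 0.18, adjusted p 0.38) in BE(2)-C, with a difference of -1.31 (SE 0.21, adjusted p 0.00061). CROT, a carnitine transferase gene, rose in both lines, by 0.85 (adjusted p 0.00046) and 0.84 (adjusted p 0.0017). AL392172.1 (ENSG00000228106, chromosome 1) had 2.65, 2.40 and 2.47 FPKM with siC and 5.26, 5.14 and 5.88 with siI1 in Hep-G2, and 4.37, 3.79 and 3.28 with siC and 4.54, 3.24 and 3.97 with siI1 in BE(2)-C. Only in Hep-G2 were the groups apart. Values were 1.08 (SE 0.091, adjusted p 0.00014) in Hep-G2 and 0.035 (SE 0.15, adjusted p 0.89) in BE(2)-C, differing by -1.05 (SE 0.18, adjusted p 0.00096). LINC01234 (ENSG00000249550, chr12:113583886-113773726, minus strand) had 1.64, 1.69 and 1.77 FPKM with siC and 1.12, 0.812 and 0.684 with siI1 in Hep-G2, and 3.29, 3.44 and 2.93 with siC and 4.86, 4.02 and 3.69 with siI1 in BE(2)-C. It was lower with siI1 in Hep-G2, and in BE(2)-C its siI1 libraries lay above siC, with a call only under some alternatives. Changes were -0.91 (SE 0.19, adjusted p 0.0086) in Hep-G2 and 0.36 (SE 0.12, adjusted p 0.063) in BE(2)-C, with a difference of 1.27 (SE 0.23, adjusted p 0.001). The BE(2)-C increase was called with a filter at 1 FPKM (0.36, adjusted p 0.04), median centring (0.39, adjusted p 0.045), equal sums of FPKM (0.38, adjusted p 0.04) and voom on recovered reads (0.38, adjusted p 0.0098).

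NORAD (ENSG00000260032, chr20:36045618-36051018, minus strand) had 131, 119 and 128 FPKM with siC and 116, 88.1 and 87.5 with siI1 in Hep-G2, and 35.5, 41.8 and 39.8 with siC and 41.3, 43.4 and 41.4 with siI1 in BE(2)-C. Of its Hep-G2 siI1 libraries, replicate 1 lay just below siC and the others well below, and in BE(2)-C the groups overlapped. It changed by -0.39 (SE 0.12, adjusted p 0.032) in Hep-G2 and 0.11 (SE 0.066, adjusted p 0.27) in BE(2)-C, the Hep-G2 call being lost without Hep-G2 siC replicates 1 and 3 and siI1 replicates 2 and 3 in turn (adjusted p 0.093, 0.089, 0.099 and 0.094). The difference of the effects was 0.50 (SE 0.14, adjusted p 0.016). AP001505.2 (ENSG00000276529, chr21:44978832-44979274, plus strand) had 6.25, 4.47 and 5.05 FPKM with siC and 2.00, 4.50 and 4.39 with siI1 in Hep-G2, and 34.3, 35.6 and 25.7 with siC and 24.7, 20.9 and 22.4 with siI1 in BE(2)-C. Its Hep-G2 groups overlapped with a low siI1 replicate 1, and its BE(2)-C siI1 libraries were all below siC. Effects were -0.60 (SE 0.31, adjusted p 0.16) in Hep-G2 and -0.48 (SE 0.13, adjusted p 0.032) in BE(2)-C, the latter lost without BE(2)-C siC replicates 1 and 2 and siI1 replicates 2 and 3 in turn (adjusted p 0.091, 0.084, 0.099 and 0.083), and the difference of 0.12 (SE 0.37, adjusted p 0.83) was not called.

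In BE(2)-C, FIRRE and AP001628.1 rose and LINC00339 and LINC02001 fell, each without a call in Hep-G2. FIRRE (ENSG00000213468, chrX:131688779-131830862, minus strand), an X-linked RNA with a role in nuclear organisation, had 1.22, 1.53 and 1.01 FPKM with siC and 1.30, 1.52 and 1.44 with siI1 in Hep-G2, and 1.54, 1.48 and 1.55 with siC and 3.85, 3.46 and 3.47 with siI1 in BE(2)-C. Its BE(2)-C siI1 libraries were more than double its siC libraries, and its Hep-G2 groups overlapped. Log2 fold changes were 0.18 (SE 0.18, adjusted p 0.46) in Hep-G2 and 1.19 (SE 0.093, adjusted p 0.00033) in BE(2)-C, with a difference of 1.01 (SE 0.19, adjusted p 0.0017). AP001628.1 (ENSG00000225218, chr21:42831040-42836477, minus strand) had 2.03, 4.63 and 0.714 FPKM with siC and 2.34, 2.65 and 4.20 with siI1 in Hep-G2, and 2.93, 1.37 and 2.01 with siC and 8.40, 6.702 and 7.58 with siI1 in BE(2)-C. The groups were far apart in BE(2)-C, and in Hep-G2 the siC libraries alone spread over most of the range. It gave 0.60 (SE 0.60, adjusted p 0.46) in Hep-G2 and 1.85 (SE 0.25, adjusted p 0.0023) in BE(2)-C, the difference of 1.252 (SE 0.71, adjusted p 0.19) not being called, from 3 to 18 reads and 5 to 37 reads per library in the respective lines. Without siC replicate 3 of Hep-G2, the difference of AP001628.1 was 1.91 (adjusted p 0.014).

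LINC00339 (ENSG00000218510, chr1:22024558-22031223, plus strand) had 4.15, 4.09 and 3.27 FPKM with siC and 3.72, 5.25 and 5.13 with siI1 in Hep-G2, and 4.72, 5.22 and 4.40 with siC and 2.18, 2.62 and 2.78 with siI1 in BE(2)-C. All siI1 libraries of BE(2)-C were far below siC, and in Hep-G2 siI1 replicate 1 lay among the siC libraries. Values were 0.28 (SE 0.16, adjusted p 0.21) in Hep-G2 and -0.90 (SE 0.12, adjusted p 0.002) in BE(2)-C, and without siI1 replicate 1 the Hep-G2 value was 0.44 (adjusted p 0.026). The difference was -1.18 (SE 0.21, adjusted p 0.0011). LINC02001 (ENSG00000267321, chr17:35568050-35574900, plus strand), which GENCODE 44 names SNHG30 and which holds the small nucleolar RNA SNORD7, had 7.58, 8.20 and 6.99 FPKM with siC and 5.998, 6.76 and 7.36 with siI1 in Hep-G2, and 8.98, 10.9 and 9.75 with siC and 5.55, 5.03 and 5.65 with siI1 in BE(2)-C. It was lower in each BE(2)-C siI1 library, while the Hep-G2 groups overlapped. Changes were -0.18 (SE 0.10, adjusted p 0.19) in Hep-G2 and -0.86 (SE 0.088, adjusted p 0.00086) in BE(2)-C, with a difference of -0.68 (SE 0.14, adjusted p 0.0023). With equal sums of FPKM the Hep-G2 value of LINC02001 was -0.34 (adjusted p 0.013), a called decrease.

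Further calls of the lincRNAs given in full were lost under single alternatives. Without the filter, no longer called in BE(2)-C were AC008124.1, AC092171.5, AL391244.3, AP001505.2, AP003392.4, PWAR6, SRP14-AS1 and ZNF674-AS1, and in Hep-G2 AL391244.3, LINC01184, NORAD and URB1-AS1 (adjusted p 0.058 to 0.088). Without the mean-variance trend the same held for AC092171.5, AL391244.3, AP001505.2, AP002360.2, AP003392.4, SRP14-AS1 and ZNF674-AS1 of BE(2)-C and AL391244.3, NORAD and URB1-AS1 of Hep-G2 (adjusted p 0.053 to 0.078). Voom on recovered reads ended the BE(2)-C calls of AC026401.3, AC092171.5 and AL391244.3 and the Hep-G2 call of AL391244.3 (adjusted p 0.052 to 0.085). With a block for the replicate number, AC008124.1, AL391244.3, AP003392.4, LINC01184, PWAR6, SRP14-AS1 and ZNF674-AS1 were not called in BE(2)-C, nor AL391244.3 and LINC01184 in Hep-G2 (adjusted p 0.055 to 0.11). Median centring ended the call of LINC01184 in Hep-G2 and of ZNF674-AS1 in BE(2)-C, and equal sums of FPKM those of AL391244.3 in Hep-G2 and ZNF674-AS1 in BE(2)-C (adjusted p 0.057 to 0.12).

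A test of the difference itself, the interaction of siRNA and line in limma, passed for 48 of the 125 lincRNAs. The effect was lower in BE(2)-C than in Hep-G2 for 36 of them (28.8% of the 125) and higher for 12 (9.6%), while over all 15362 genes tested in both lines it was lower for 18.5% and higher for 21.7%. Over all 125 the median difference was -0.30, beside 0.038 over all genes. The 48 became 54 without siI1 replicate 1 of Hep-G2. Being called in a single line did not always mean a difference, which passed for 18 of the 32 called in Hep-G2 alone and for 12 of the 21 called in BE(2)-C alone. A choice by a call in a single line favours a difference. The share over all genes called in a single line is not given here, and over all 15362 genes the difference passed for 40.2%. The difference also passed for lincRNAs that moved the same way in both lines, as AL445434.1 at -0.67 (SE 0.11, adjusted p 0.00055), SRP14-AS1 at -1.45 (SE 0.28, adjusted p 0.0017), LINC01521 at -0.66 (SE 0.19, adjusted p 0.018) and ZNF674-AS1 at 0.70 (SE 0.24, adjusted p 0.037). That of LINC01521 was lost with equal sums of FPKM (-0.48, adjusted p 0.1) and with a pseudocount of 1 (-0.32, adjusted p 0.076). That of ZNF674-AS1 was lost with voom on recovered reads, with the replicate block, without siC replicate 1, 2 or siI1 replicate 1 or 3 of Hep-G2 and without siC replicate 2 or 3 or siI1 replicate 2 of BE(2)-C (adjusted p 0.052 to 0.086). Conversely, the difference passed for AC026401.3 only without siI1 replicate 3 (0.97, adjusted p 0.023) and for AC146944.4 only without siC replicate 2 of Hep-G2 (-0.69, adjusted p 0.04).

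Starts of the lincRNAs were set beside those of protein-coding genes, without a test between arrangements. GENCODE 44 gave a position on hg38 for 115 of them. The start of the nearest protein-coding gene was divergent for 51, on the same strand for 39 and convergent for 25, and 45 lincRNAs started within 1000 nt of it, 30 of them divergent. In Hep-G2, 25 of the 51 divergent lincRNAs were higher and 4 lower with a median of 0.49, 7 of the 39 on the same strand were higher and 5 lower with a median of 0.23, and 9 of the 25 convergent ones were higher and 1 lower with a median of 0.34. BE(2)-C gave 8 higher and 13 lower of the 51, 4 and 7 of the 39, and 4 and 4 of the 25. Among the 30 divergent ones within 1000 nt, 16 were higher and 2 lower in Hep-G2 with a median of 0.54, whereas BE(2)-C had 4 higher and 7 lower and a median of -0.013. These counts stand beside 21.9% higher and 23.0% lower over all tested genes of Hep-G2, and 13.3% and 14.8% over those of BE(2)-C.

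The protein-coding partners of these 30 moved with the lincRNA in some pairs and against it in others. Their median log2 fold change was -0.25 for Hep-G2 and 0.040 for BE(2)-C. The 8695 protein-coding genes at 1 FPKM or more in both lines had a median of -0.085 in Hep-G2, with 24.5% higher and 35.1% lower. In BE(2)-C their median was -0.035, with 15.7% higher and 24.2% lower. Of the 16 pairs with a higher lincRNA in Hep-G2, the partner was higher in 5, not called in 4 and lower in 7. The 5 were SRP14-AS1, TP53TG1, AP003392.4, LINC01770 and CH17-340M24.3. URB1-AS1 and AP002360.2 were among the 7. Both fell in 2 pairs, 1 of them LINC01184 with SLC12A2. A lower lincRNA with a partner not called was seen in 7 pairs of BE(2)-C, and AP003392.4 was higher together with CCDC84. Across the 30 pairs the correlation of lincRNA and partner was 0.49 for Hep-G2 and 0.23 for BE(2)-C, pairs being no replicates. AC141928.1, SPRY4-IT1 and AC026401.3, which moved with the neighbouring or surrounding gene in both lines, were named after their values were seen.

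Most of the other lincRNAs given in full lie farther from the nearest protein-coding start. Beside NORAD, EPB41L1 (40486 nt away) was lower in both lines, at -0.91 (adjusted p 2.5e-05) in Hep-G2 and -0.35 (adjusted p 0.0043) in BE(2)-C. Called lower in Hep-G2 only were STK26 (192440 nt from FIRRE) at -2.01 (adjusted p 1.6e-05), WDR4 (43091 nt from AP001628.1) at -0.67 (adjusted p 0.0017) and RBM19 (192599 nt from LINC01234) at -0.29 (adjusted p 0.0073). PSMG4, the nearest to AL445434.1, was likewise lower in Hep-G2 only at -0.48 (adjusted p 0.033). NREP (163062 nt from EPB41L4A-AS1) went opposite ways, at 0.60 (adjusted p 0.0003) in Hep-G2 and -0.53 (adjusted p 0.00059) in BE(2)-C. RPIA (889467 nt from AC006453.2) was higher in both, at 0.24 (adjusted p 0.01) and 0.44 (adjusted p 0.0046). FAM207A beside AP001505.2, MRFAP1 beside AC093323.1, SMN2 beside AC146944.4 and MRPL20 beside AL391244.3 were called in neither line, and CELA3A beside LINC00339 and SLFN14 beside LINC02001 were not tested.

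**Figure D5:**
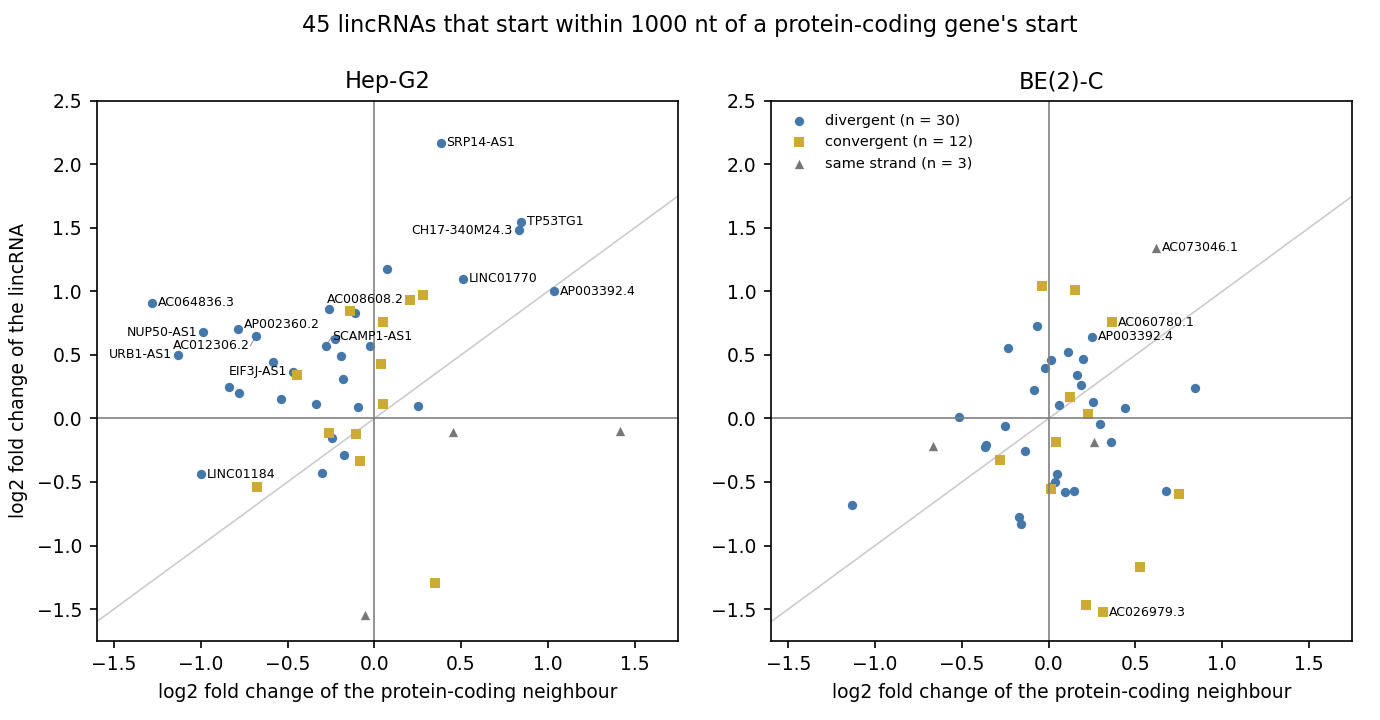
Log2 fold change of the protein-coding gene with the nearest start (x axis) and of the lincRNA (y axis) for the 45 lincRNAs that start within 1000 nt of it, in Hep-G2 and BE(2)-C, with names at most pairs in which both were called. In Hep-G2, 7 of the 30 divergent pairs combine a higher lincRNA with a lower partner, and in BE(2)-C none does.

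Overlaps limit the certainty of some values. The libraries are described as strand-specific, but the strand setting of the read summary is not stated in the sources used. At least 30% of the exon length lay over exons of another gene on the same strand or recurred in another gene for 18 lincRNAs, and lay over exons of the opposite strand for 12, which leaves 98 with neither found, some of them without a position. Examples of the first kind are AC073046.1 and AC005332.7, whose exons lie wholly within those of TET3 and AMZ2, and CYTOR and MIR4435-2HG, near copies of each other. Among the 98, 11 were lower and 32 higher in Hep-G2 with a median of 0.30, and BE(2)-C had 21 lower and 15 higher and a median of -0.028, beside 23.0% lower and 21.9% higher over all tested genes of Hep-G2 and 14.8% and 13.3% over those of BE(2)-C. GENCODE 44 classes 112 of the 125 as lncRNA, 1 as protein-coding and 2 as transcribed pseudogenes and lacks 10, and 21 bear a newer name ending in DT, for divergent transcript.

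Transcripts of the lincRNAs were shorter than messenger RNAs. The longest transcript had a median length of 1745 nt, beside 3860 nt for the 8695 protein-coding genes at the same level, and a GC content of 45.6% beside 47.7%. The median GC content was 49.4% for those higher and 41.3% for those lower in Hep-G2, and 51.0% for those lower and 46.0% for those higher in BE(2)-C. CAU followed by A, C or U, letters found in IGF2BP1 binding sites, occurred 10.5 times per kb in the lincRNAs and 10.7 times per kb in the protein-coding transcripts. For lincRNAs lower in Hep-G2 the median was 13.5 per kb, and for those higher it was 9.43 per kb, with 10 and 41 transcripts available. For BE(2)-C the order was the reverse, at 9.2 per kb for those lower and 10.7 per kb for those higher, with 24 and 16 transcripts.

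Groups fixed by symbol held few of the lincRNAs. Hosts of microRNAs by symbol were MIR4435-2HG and MIR4458HG, and 5 more hosts were added after values were seen. MicroRNAs were found in these 7 lincRNAs, of which 2 were called in Hep-G2, both higher, and none in BE(2)-C. Over all tested genes, 21.9% were higher and 23.0% lower for Hep-G2, and 13.3% and 14.8% for BE(2)-C. The search left out microRNAs of chromosome 8 and lincRNAs without a GENCODE position, so further hosts may be missing from these counts. The let-7 hosts AL158152.1 and AC048341.3 were at 0.10 (SE 0.27, adjusted p 0.79) in Hep-G2 and 0.39 (SE 0.32, adjusted p 0.41) in BE(2)-C and at 0.56 (SE 0.28, adjusted p 0.15) in Hep-G2 and 0.56 (SE 0.28, adjusted p 0.19) in BE(2)-C. MIR4458HG was at -0.11 (SE 0.21, adjusted p 0.69) in Hep-G2 and -0.42 (SE 0.13, adjusted p 0.056) in BE(2)-C. AC020916.1, the host of miR-23a, miR-27a and miR-24-2, rose in Hep-G2 from a mean of 1.18 to 2.20 FPKM and was at 0.83 (SE 0.18, adjusted p 0.0097) in Hep-G2 and -0.13 (SE 0.17, adjusted p 0.61) in BE(2)-C. MIR4435-2HG was at 0.60 (SE 0.11, adjusted p 0.0037) in Hep-G2 and -0.30 (SE 0.13, adjusted p 0.14) in BE(2)-C, and its near copy CYTOR at 0.021 (SE 0.12, adjusted p 0.91) in Hep-G2 and 0.072 (SE 0.12, adjusted p 0.69) in BE(2)-C. The remaining host, DKFZP434I0714 with miR-4453, was at -0.43 (SE 0.17, adjusted p 0.075) in Hep-G2 and -0.57 (SE 0.18, adjusted p 0.056) in BE(2)-C. The microRNAs themselves were not measured by these libraries. Of cytoplasmic lncRNAs of broad expression, 5 were included, and beside NORAD, EPB41L4A-AS1, CYTOR and MIR4435-2HG there was LINC00667 at 0.55 (SE 0.093, adjusted p 0.0032) in Hep-G2 and 0.51 (SE 0.17, adjusted p 0.062) in BE(2)-C. TP53TG1 and NORAD represent p53-linked lncRNAs. Of 6 lincRNA genes known to encode a microprotein and 4 of the X inactivation centre, 0 were included.

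By name, 78 of the lincRNAs carried a clone-based symbol, 17 a LINC number, 15 an AS symbol, 2 a MIR host symbol and 13 another symbol. In Hep-G2, 26 of the 78 were higher and 5 lower, 5 of the 17 were higher and 2 lower, and 8 of the 15 were higher and 2 lower. Of the 13 with other symbols, 3 were higher and 3 lower, and over all tested genes 21.9% were higher and 23.0% lower. BE(2)-C had 12 higher and 14 lower of the 78, 3 and 5 of the 17, 2 and 5 of the 15, and 3 and 0 of the 13, beside 13.3% and 14.8% of all tested genes.

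Genes that degrade or terminate nuclear RNA were examined beside the lincRNAs, as a list of 31 with the exosome, its adaptors, the cap-binding complex and Integrator. All 31 were tested in each line. In Hep-G2, 10 were lower and 3 higher with a median of -0.16, beside 23.0% lower and 21.9% higher among all tested genes. Of the 8695 protein-coding genes at 1 FPKM or more in both lines, 35.1% were lower and 24.5% higher there. The largest decreases were those of EXOSC3, a subunit of the exosome core, at -0.91 (SE 0.072, adjusted p 0.00011), and of NCBP2, a subunit of the nuclear cap-binding complex, at -0.88 (SE 0.067, adjusted p 8.9e-05). SKIV2L2, the nuclear exosome helicase, was at -0.61 (SE 0.15, adjusted p 0.015) and the adaptor ZFC3H1 at -0.63 (SE 0.18, adjusted p 0.025). Higher were MPHOSPH6, PABPN1 and PAPD5. In BE(2)-C, 8 were lower and 6 higher with a median of -0.10, beside 14.8% and 13.3% of all tested genes. For the same protein-coding genes the shares were 24.2% and 15.7%. Lower there was ZC3H3 at -0.70 (SE 0.06, adjusted p 0.00046) and higher was PAPD5 at 0.57 (SE 0.11, adjusted p 0.0085). The helicase SKIV2L2 and the nuclease DIS3 went opposite ways, being lower in Hep-G2 and, at 0.35 (SE 0.073, adjusted p 0.012) and 0.45 (SE 0.10, adjusted p 0.014), higher in BE(2)-C. INTS11, the nuclease of Integrator, was lower in both lines, at -0.62 (SE 0.10, adjusted p 0.0028) in Hep-G2 and -0.53 (SE 0.06, adjusted p 0.0012) in BE(2)-C. So were NCBP2, at -0.31 (SE 0.055, adjusted p 0.0065) in BE(2)-C, and EXOSC6. EXOSC6 was at -0.60 (SE 0.098, adjusted p 0.0027) in Hep-G2 and -0.29 (SE 0.070, adjusted p 0.022) in BE(2)-C. Whether these changes had a part in those of the lincRNAs was not tested.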

How the data were processed

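The authors clipped reads with cutadapt 1.14, aligned them to hg38 with HISAT2 2.1.0, counted them per gene with featureCounts 1.5.3 and tested with edgeR 3.30.3. The deposited tables of each line hold FPKM per gene and library, scaled by TMM, with the authors' log2 fold change, p-value and FDR, which were not used. Reads per gene were recovered by dividing FPKM times length by a constant of each library, which gave whole numbers for 100% of values (within 0.001 reads). All 12 sample columns were mapped by name.

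A gene was tested in a line if 3 or more libraries had 0.1 FPKM or more. Tests used log2(FPKM + 0.1) and limma 3.58.1 (R 4.3.3) with its trend option, and p-values were adjusted across tested genes by Benjamini-Hochberg and called at 0.05. The difference between lines was the interaction in a joint fit of the 15362 genes tested in both. The code was tested on simulated data. Alternatives covered the pseudocount, filter, trend, scaling, voom, replicate block, thresholds, level of choice and each library left out.

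The lincRNAs named in full are those called in both lines, the 5 with the smallest p per line and direction, the 5 with the highest mean FPKM and the 5 with the smallest p of the difference. Of the 32 so chosen, 31 are described. Neighbours, host genes, microRNA hosts, gene classes by symbol, line markers and nuclear RNA turnover genes are described beside them. SPRY4 and the microRNA hosts without MIR in the symbol were added after values were seen. Members and lists were chosen with earlier results of these data known. Positions and transcripts came from GENCODE 44 by Ensembl identifier (positions of PWAR6 and SPRY4-IT1 from RefSeq), copies from BLAST+ 2.17.0 (at least 97% identity), promoters and microRNAs from RefSeq. Other tools were Python 3.11.15 with pandas 2.3.3, NumPy 2.4.6 and Matplotlib 3.10.9. In R, data.table of version 1.17.8 was used.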

Additional observations from a re-analysis of the deposited data

Results flagged for a closer look

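By the interaction test of limma, the knockdown effect was lower in BE(2)-C for 36 lincRNAs (28.8%) and higher for 12 (9.6%). Over all 15362 genes tested in both lines it was lower for 18.5% and higher for 21.7%. In both directions together, the difference passed for 38.4% of the lincRNAs and 40.2% of all these genes. The 5 lincRNAs with the smallest p are given as the log2 fold change in BE(2)-C minus that in Hep-G2. AC141928.1 was at -2.85, PAXIP1-AS1 at -1.09, AC006453.2 at -0.83, AL445434.1 at -0.67 and SPRY4-IT1 at 4.51 (5.88 and 2.35 with a pseudocount of 0.01 and 1). The first 3 rose in Hep-G2 and fell in BE(2)-C, AL445434.1 rose in both and more so in Hep-G2, and SPRY4-IT1 fell in Hep-G2 and rose in BE(2)-C.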

How the results depend on the processing

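No lincRNA called in the report changed direction under any alternative run. Counts are given as lower and higher in Hep-G2, lower and higher in BE(2)-C, higher in both, lower in both, opposite and differing between lines, which were 12, 43, 24, 20, 9, 5, 9 and 48. They changed by over 1.5 times as follows. Without the filter, 14 were lower and 13 higher in BE(2)-C, 2 lower in both and 5 opposite. Without the mean-variance trend, 15 were lower in BE(2)-C and 3 lower in both. Median centring gave 3 lower in both and a BE(2)-C median of 0.0022, and equal sums of FPKM 22 lower in Hep-G2 with medians of 0.1501 and -0.0044. With a block for the replicate number, 3 were lower in both. No siC library correlated with a siI1 library of its number by 0.1 or more in its deviations, so the block rests on the numbers alone. An adjusted p below 0.01 gave 4, 26, 8, 7, 2, 1, 1 and 28, and a log2 fold change of at least 1 gave 3, 14, 3, 8, 1, 0, 2 and 22, both by construction fewer. A level of 2 FPKM left 57 lincRNAs with 5 lower and 23 higher in Hep-G2, 7 higher in BE(2)-C, 3 higher in both, 3 lower in both, 4 opposite and 26 differing. Of these 57, 16 were lower in BE(2)-C, beside 14.8% of all tested genes. A level of 0.5 FPKM took in 247, with 70 higher in Hep-G2, 35 higher in BE(2)-C, 14 higher in both and a BE(2)-C median of 0.0387. Counts at both levels change by construction with the number of lincRNAs. Leaving out the 27 lincRNAs with shared exons or a copy, an alternative chosen after seeing the data, moved no count by that much. Where no construction is named, the cause was not tested. Leaving out each library in turn gave 5 to 13 lower and 32 to 51 higher in Hep-G2, 10 to 18 lower and 10 to 17 higher in BE(2)-C, 5 to 10 higher in both, 2 to 4 lower in both, 4 to 11 opposite and 40 to 54 differing. The medians ranged from 0.2102 to 0.362 in Hep-G2 and from -0.0664 to 0.0014 in BE(2)-C. Of 98 values, those of the 32 lincRNAs chosen to be given in full and the 2 fold changes of IGF2BP1, the call changed for 13 without the filter, 11 without the trend, 10 with the replicate block and 9 with equal sums. With 3 libraries per group, decreases and increases of lincRNAs with few reads were the least precise.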
